A study of Mus musculus with 4 samples.

Results

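The genes for 10 neuropeptide precursors were followed through the GABAergic neurons of the mouse basolateral amygdala (BLA): Sst, Vip, Npy, Cck, Crh, Tac1, Tac2, Penk, Pdyn and Nts, chosen by symbol out of the 32285 genes counted. The BLA, a structure that attaches threat and reward value to sensory cues, was profiled by single-nucleus RNA sequencing in 2 wild-type (WT) libraries and 2 libraries of DISC1-N mice, whose genotype concerns the scaffold protein gene Disc1. All mice were on the C57BL/6J strain, and tissue was taken 6 h after an intraperitoneal tamoxifen injection in both groups, so the WT libraries carry that exposure too. BLA of both sides from 5 mice was pooled per group, per the labels' protocols, and nothing says that replicates 1 and 2 of a genotype came from separate mice, so p-values measure only the spread between these libraries, which may be technical. No ages, sexes or details of the DISC1-N allele were given in the sources used here.

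A neuropeptide precursor is a secretory protein that prohormone convertases cut into active peptides, which are stored in dense-core vesicles and released on strong firing. GABAergic neurons combine such a peptide with GABA, and the precursor a neuron makes is a classical way to sort interneurons: somatostatin cells contact dendrites, and many vasoactive intestinal peptide (VIP) cells contact other interneurons. Enkephalins, dynorphins and tachykinins are also known from the intercalated and striatal-type GABAergic neurons around and beside the BLA, though not from these alone. Their receptors are G protein-coupled, with neurotensin also binding the sorting receptor Sort1.

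Many precursor genes are known to respond to cyclic AMP through a short promoter element, TGACGTCA, or its shorter form TGACG. The RefSeq promoter windows (assembly GRCm38.p6) held 8 of the 10 genes, without Crh and Penk. Over the 250 bases upstream of the start, both strands were searched, and each full element also holds the shorter form. The full element stood in 1.55% of 32851 windows of that length and the shorter form, TGACG or CGTCA on the printed strand, in 17.8%. The stretches below show the motif nearest the start in each gene that held one, written 5′ to 3′ on the gene's strand with the motif in capitals.
Sst, chr16:23890865-23890912, minus strand, motif 48 bases upstream: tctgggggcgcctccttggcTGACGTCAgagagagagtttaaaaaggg
Vip, chr10:5639119-5639163, plus strand, motif 79 bases upstream: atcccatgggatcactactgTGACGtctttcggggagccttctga
Cck, chr9:121495717-121495761, minus strand, motif 47 bases upstream: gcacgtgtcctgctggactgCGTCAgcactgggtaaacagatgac
Tac1, chr6:7554998-7555042, plus strand, motif 43 bases upstream: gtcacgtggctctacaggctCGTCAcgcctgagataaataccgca
Nts, chr10:102490560-102490604, minus strand, motif 166 bases upstream: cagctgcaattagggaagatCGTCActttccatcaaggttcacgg
Sst alone held the full element, and the window of Tac1 held the shorter form at 2 places, of which the nearer is printed. The windows of Npy, Tac2 and Pdyn held neither motif. On mm10, 9 of the 10 genes overlapped no other annotated gene. Penk (chromosome 4, 4133531 to 4138819, minus strand) overlapped the transcript A830012C17Rik on the opposite strand, and no annotated gene on its own strand.

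The 4 libraries held 27313 barcodes with 37840301 to 48439711 UMIs (unique molecular identifiers, counts of captured transcripts) each and medians of 3279 to 4780.5 UMIs per barcode. Filtering and removal of 1518 putative doublets left 25332 nuclei, of which 6842 were GABAergic (1289 in WT replicate 1, 943 in DISC1-N replicate 1, 2349 in WT replicate 2 and 2261 in DISC1-N replicate 2). The libraries of one replicate number resembled each other: deviations of same-numbered libraries from their genotype mean correlated at 0.80 over 7514 genes in GABAergic neurons. The file headers name another Cell Ranger version for replicate 1 than for replicate 2, and nuclei left without a class numbered 1280 and 1032 in the replicate 1 libraries against 360 and 295 in the replicate 2 libraries. Values within each replicate number are therefore given throughout. Library pairs shared 5 to 21 cell barcodes.

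GABAergic nuclei were clustered without the 10 genes into 15 subtypes, named by leading genes and, where markers allowed, as a cell type with "-like". They comprised 3 intercalated-like subtypes, known by the transcription factor Foxp2 and led by Abi3bp (1769 nuclei), Gpr149 (923) and Kcnh8 (845), and a subtype led by Zfhx3 (798) that was given no cell type name. Among interneurons, 794 nuclei were Lhx6 interneuron-like with Ltbp1, 306 were somatostatin interneuron-like by markers other than Sst and led by Satb1, 269 were neurogliaform-like, and 77 were like long-range Nos1 neurons. The 7 somatostatin interneuron markers other than Sst summed to 4545 to 5970 CPM in the Satb1 subtype and to 5158 to 7245 CPM in the Ltbp1 subtype. They therefore do not set the Satb1 subtype apart from the Ltbp1 subtype, although only the first carries the name. A further 341, 228 and 194 nuclei were Adarb2 interneuron-like, led by Prox1, Cnr1 and Pdzrn3. The other 4 subtypes, Mctp2 Lhx6 interneuron-like cells and Hcrtr2, Lhx8 and Dpf3 neurons, held 34 to 106 nuclei each. Summed Gad1, Gad2 and Slc32a1, which make and load GABA, had 362 to 1561 CPM in the 15 subtypes, against 25.7 to 88.3 CPM for the glutamate transporter genes Slc17a7 and Slc17a6. Levels below are CPM (UMIs per 1000000 UMIs of a subtype in a library) or UMIs per nucleus, and compare cell groups for one gene, not one gene with another.

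Transcripts released from broken cells set a floor under these values. In 8785 glial nuclei (astrocytes, oligodendrocytes, their precursors and microglia), which should lack most of these RNAs, Sst was found in 25.0% ± 13.1 of nuclei (SD, n = 4 libraries) and Cck in 33.6% ± 19.9, at a median depth of 1630 UMIs against 4037 in GABAergic nuclei. Glial shares were 11.3% for Npy, 4.77% for Penk, 3.72% for Vip, 3.12% for Tac1, 1.41% for Tac2, 1.17% for Nts, 0.222% for Crh and 0.218% for Pdyn. They were higher in the replicate 1 libraries: Sst had 297 and 227 CPM in glia of WT and DISC1-N replicate 1, and 110 and 72.7 CPM in replicate 2. GABAergic nuclei held more UMIs per nucleus than glia of the same library for each of the 10 genes, from 1.57 ± 0.12 times for Cck to 20.4 ± 2.8 times for Penk. Excitatory neurons lay within 1.01 to 1.70 times the glial level for 8 of the genes, although their median depth was 7797 UMIs. The exceptions were Cck, at 3.10 ± 0.95 times, and Nts, at 9.76 ± 3.75 times. A subtype is called above the floor here where it held at least 3 times the glial UMIs per nucleus in every library.

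**Figure D1:**
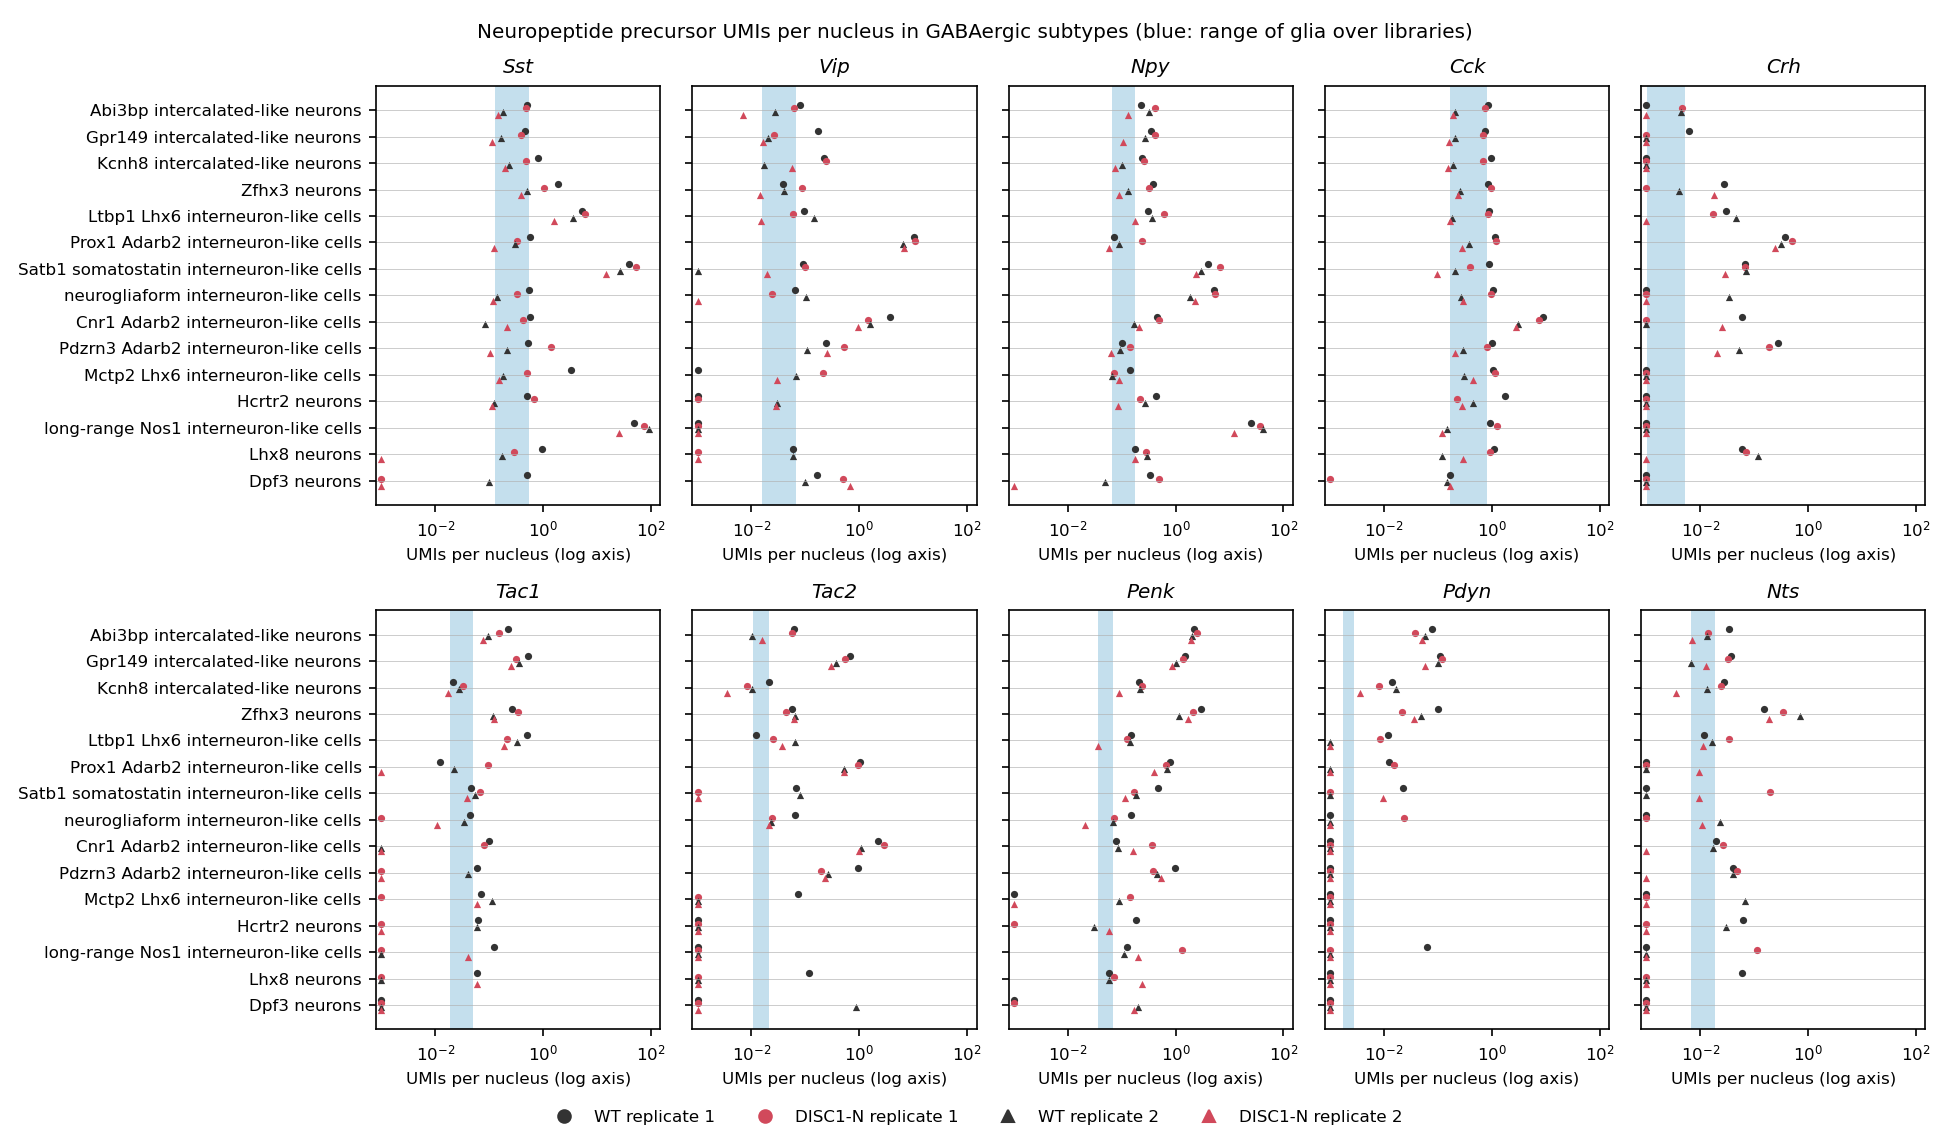
UMIs per nucleus (log axis) of each of the 10 genes in the 15 GABAergic subtypes, 1 point per library, with the range of the 4 libraries' glial levels as a band; values at or under the left edge, 0 included, are drawn on it. Points to the right of the band mark few subtypes per gene, from 1 for Cck and Nts to 5 for Penk at 3 times the glial level or more.

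Sst, the precursor of somatostatin and the classical label of dendrite-targeting interneurons, stood above the floor in 3 of 15 subtypes. In Nos1-like cells, rare long-range neurons, Sst had 11760 CPM in WT replicate 1, 14390 in DISC1-N replicate 1, 19180 in WT replicate 2 and 5038 in DISC1-N replicate 2. In Satb1 somatostatin-like cells it had 5811, 8941, 5148 and 2204 CPM in the same order. The Ltbp1 Lhx6 subtype held 974, 966, 764 and 329 CPM. In each of these subtypes the DISC1-N replicate 2 library was the lowest. Sst was detected in 96.2% ± 4.5 of Nos1-like, 97.6% ± 2.7 of Satb1 and 32.4% to 61.7% of Ltbp1 nuclei over the 4 libraries (SD, n = 4), against 11.7% to 39.7% of glia at a lower median depth (1630 against 4406, 5269 and 4620 UMIs). Sst RNA was concentrated: 81 nuclei, 1.18% of the GABAergic ones, held 50% of its GABAergic UMIs, and the richest nucleus, a Nos1-like one of WT replicate 2, held 1230. Without the richest nucleus of each library the Nos1-like values were 8507, 7761, 9505 and 4107 CPM.

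Npy, the precursor of neuropeptide Y, an inhibitory peptide of Nos1 and neurogliaform cells, stood above the floor in 3 subtypes. Nos1-like cells held 6024, 7067, 8798 and 2444 CPM in WT replicate 1, DISC1-N replicate 1, WT replicate 2 and DISC1-N replicate 2. Neurogliaform-like cells, which release GABA diffusely, held 1029, 887, 395 and 481 CPM. Satb1 somatostatin-like cells held 597, 1152, 558 and 372 CPM. In the Nos1-like and Satb1 subtypes DISC1-N replicate 2 was the lowest library, while in neurogliaform-like cells both replicate 1 libraries exceeded both replicate 2 libraries. Neurogliaform-like and Satb1 means, 698 ± 308 and 670 ± 336 CPM, did not differ beyond their spread. Npy was detected in 95.2%, 71.3% and 68.5% of these nuclei, against 11.3% of glia.

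Vip, a peptide of interneurons that inhibit other interneurons, was highest in the Prox1 Adarb2 subtype. Vip had 3002, 3005, 1953 and 1805 CPM there (WT and DISC1-N replicate 1, WT and DISC1-N replicate 2) and was detected in 94.5% ± 3.3 of nuclei. The replicate 1 libraries were both above the replicate 2 libraries, and the genotypes lay close within each number. The Cnr1 Adarb2 subtype held 634, 192, 249 and 140 CPM, carried by few nuclei: 17.9% ± 2.8 had a Vip UMI, 13 had at least 10, and 1 WT replicate 1 nucleus held 113. The Pdzrn3 Adarb2 subtype, at 69.0, 138, 30.5 and 69.0 CPM, was the third above the floor. The Prox1 subtype held 78.5% of GABAergic Vip UMIs in 4.98% of GABAergic nuclei.

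Crh, the precursor of corticotropin-releasing hormone that mediates stress responses, was highest in the same Prox1 Adarb2 subtype at 112, 137, 96.3 and 64.0 CPM. It was detected in 22.7% ± 8.4 of Prox1 nuclei against 0.222% of glia, and no GABAergic nucleus held more than 7 Crh UMIs. The Pdzrn3 subtype followed at 80.5, 50.1, 15.2 and 5.75 CPM, a spread (SD 34) about as large as its mean of 37.9. Its values rest on few nuclei, since without the richest nucleus of each library both replicate 2 libraries were at 0. Satb1 somatostatin-like cells were also above the floor, at 4.41 to 13.5 CPM. That level rests on 2 to 9 UMIs in 2 or 3 nuclei a library, and 1 WT replicate 2 nucleus held 7 of the 9. The glial level of Crh itself came from 3 to 6 UMIs a library.

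Cck, the precursor of cholecystokinin, marks basket cells that carry the cannabinoid receptor Cnr1. It was above the floor in 1 subtype, the Cnr1 Adarb2 cells, with 1542, 978, 466 and 406 CPM in WT and DISC1-N replicate 1 and then replicate 2. The replicate 1 libraries were both higher, as they were in glia (441 and 372 against 121 and 94.7 CPM). Relative to glia of the same library the Cnr1 subtype held 13.4 ± 2.8 times the Cck UMIs per nucleus. The next subtypes, Mctp2 Lhx6 and Prox1 cells, held 1.82 and 1.68 times and cannot be told apart from free RNA. In excitatory neurons, where Cck is also a known peptide of pyramidal cells, it had 198, 171, 101 and 75.1 CPM, and 15 nuclei held at least 10 UMIs.

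Tac2, which encodes neurokinin B, stood above the floor in 4 subtypes: Cnr1 Adarb2 (269 ± 132 CPM), Prox1 Adarb2 (217 ± 81), Pdzrn3 Adarb2 and Gpr149 intercalated-like neurons. The Cnr1 subtype held 378, 388, 165 and 144 CPM and the Prox1 subtype 306, 262, 159 and 138, so the order of these neighbours lay within their spread. The Gpr149 subtype held 151, 120, 102 and 82.5 CPM. All 3 were higher in both replicate 1 than in both replicate 2 libraries. Shares of nuclei with a Tac2 UMI were 29.8% in the Cnr1 and 26.4% in the Prox1 subtype against 1.41% in glia, and thinned to 1000 UMIs per nucleus the Prox1 subtype led.

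Tac1, which encodes substance P and neurokinin A, was highest in Gpr149 intercalated-like neurons, at 116, 70.9, 100 and 69.2 CPM in the same library order. The Ltbp1 Lhx6 subtype followed at 92.5, 34.0, 70.0 and 39.2 CPM. In both, each DISC1-N library lay below each WT library. Abi3bp intercalated-like and Zfhx3 neurons, at means of 36.4 and 34.1 CPM, were also above the floor and did not differ beyond their spread. Tac1 was detected in 22.8% ± 5.9 of Gpr149 nuclei against 3.12% of glia, and in 6.12% of the oligodendrocyte precursors among them.

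Penk, the enkephalin precursor and a known product of intercalated cells, had the widest distribution, above the floor in 5 subtypes. Abi3bp intercalated-like neurons held 569, 656, 553 and 523 CPM, the narrowest spread relative to its mean among the 10 genes' leading subtypes (575 ± 57), and 65.5% of their nuclei had a UMI against 4.77% of glia. Zfhx3 neurons held 455, 317, 213 and 282 CPM and Gpr149 intercalated-like neurons 330, 312, 289 and 231, which overlapped. Prox1 and Pdzrn3 Adarb2 cells followed at means of 183 and 165 CPM. The Kcnh8 intercalated-like subtype, at 42.6 CPM, was 2.39 to 5.05 times the glial level, so the intercalated-like subtypes ranged in Penk from 42.6 ± 15.4 to 575 ± 57 CPM. At the finer clustering a cluster led by Npffr2, Baz1a and Abi3bp (747 nuclei) reached 865 ± 137 CPM.

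Pdyn, the dynorphin precursor, was sparse, with 243 UMIs in all GABAergic nuclei. It was highest in Gpr149 intercalated-like neurons at 24.9, 26.6, 27.6 and 16.0 CPM, followed by Abi3bp at 19.9, 9.72, 15.8 and 13.5 CPM and Zfhx3 neurons at 3.34 to 15.1 CPM. It was detected in 9.06% ± 2.28 of Gpr149 nuclei against 0.218% of glia, with no Gpr149 nucleus at 3 UMIs or more. The Gpr149 subtype therefore led for both Tac1 and Pdyn, and at the finer clustering a cluster led by Gpr149, Drd1 (a dopamine receptor gene) and Pth2r held both maxima, 108 ± 27 CPM of Tac1 and 27.7 ± 5.0 CPM of Pdyn.

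Nts, the neurotensin precursor, was above the floor in Zfhx3 neurons alone, at 23.6, 53.4, 133 and 31.3 CPM, and 9.17% ± 2.20 of their nuclei had a UMI. A single WT replicate 2 nucleus held 92 UMIs. Without the richest nucleus of each library the values were 11.8, 36.7, 64.3 and 27.0 CPM, so the WT libraries stayed the lowest and the highest of the 4. At the finer clustering Nts was highest in a cluster led by Ebf1, Glra3 and Rmst (408 nuclei), at 104 ± 68 CPM. That cluster lay wholly within the Zfhx3 subtype (798 nuclei) and made up only part of it. Nts was also the gene with the most UMIs per nucleus in excitatory neurons relative to glia: 16 excitatory nuclei held at least 10 UMIs, and the class had 24.0, 11.1, 9.67 and 7.82 CPM.

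Few nuclei combined several precursors at a cut of 3 UMIs. At a median depth of 4037 UMIs sparse genes seldom reach that cut: no GABAergic nucleus held more than 3 UMIs of Pdyn or 7 of Crh. The counts at this cut therefore also miss nuclei that make little of a precursor. At 3 UMIs or more of a gene, 4592 of 6842 GABAergic nuclei (67.1%) held none of the 10, 1799 held 1 and 393 (5.74%) held 2, and 1 nucleus held 5. At 1 UMI or more 20.5% held none, but free RNA enters that count. Of the 45 possible pairs, 2 were frequent enough at 3 UMIs for a ratio in every library, taken as the nuclei with both over the number that the 2 shares would give within the same subtype and library (at least 5 nuclei). Sst and Npy were together in 197 nuclei, at ratios of 1.22, 1.03, 1.19 and 1.24 in WT and DISC1-N replicate 1 and WT and DISC1-N replicate 2. Of the nuclei with Npy, 55.8% ± 7.7 also held Sst, and of those with Sst, 31.2% ± 2.1 held Npy. Vip and Tac2 were together in 60 nuclei at ratios of 1.60, 1.37, 1.34 and 1.58.

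At 1 UMI, 32 pairs could be counted, and 12 were above 1 in every library and 0 below. They included Tac1 with Tac2 (78 nuclei, ratio 1.39, 1.12 to 1.57 over libraries), Tac1 with Penk (301 nuclei, 1.19, 1.15 to 1.27), Vip with Tac2 (135 nuclei, 1.24, 1.15 to 1.35), Vip with Crh (84 nuclei, 1.15, 1.06 to 1.22) and Npy with Pdyn (51 nuclei, 1.23, 1.01 to 1.39). Deeper nuclei hold more of every gene. With each nucleus thinned to 1000 UMIs, 11 pairs could be counted and 2 stayed above 1 in each library: Sst with Npy (1.12, 1.10 to 1.15) and Vip with Tac2 (1.27, 1.06 to 1.62). Tac1 with Penk, thinned, ranged from 0.82 to 1.56.

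**Figure D2:**
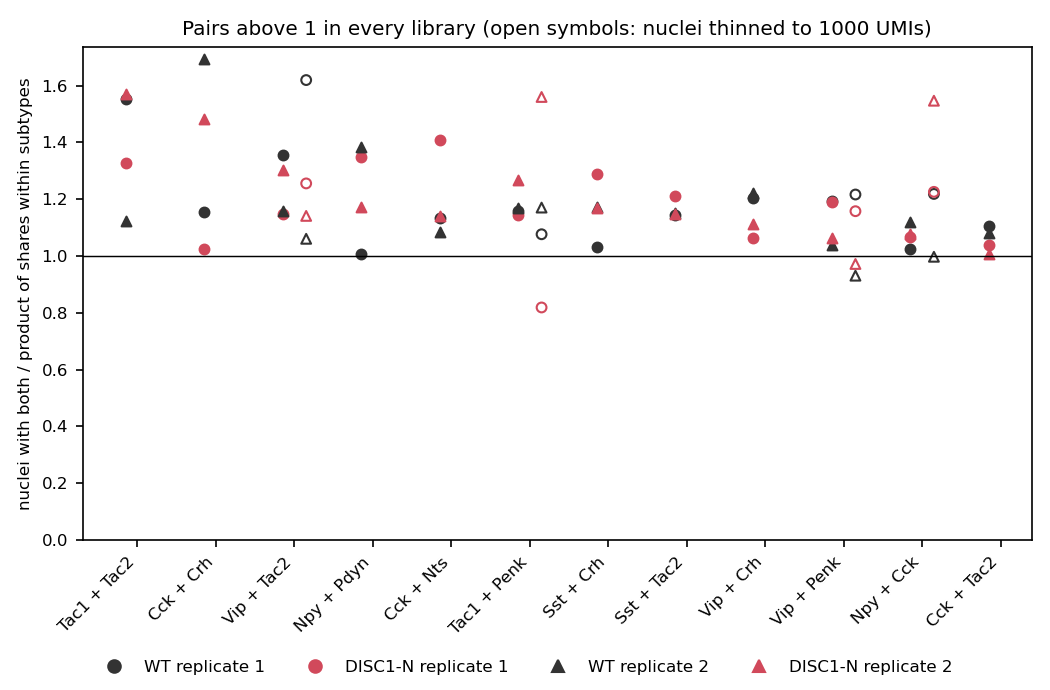
Ratio of nuclei holding both genes to the product of their shares within subtype and library, for the 12 pairs above 1 in every library at 1 UMI; points are libraries, filled at full depth and open after thinning to 1000 UMIs, where enough nuclei remained. Open points stay above 1 in all libraries for Vip with Tac2 and scatter around 1 for Tac1 with Penk.

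Genes whose mean level followed each precursor over the 10 subtypes with at least 20 nuclei in every library were ranked by Pearson's r of log2(CPM + 1). These are descriptions over 10 points that share libraries and depth. Cck and Nts were above the floor in 1 of the 15 subtypes, and Sst, Vip, Npy, Crh and Pdyn in 3. For these 7 genes most of the 10 points were thus not above the floor. The genes named are the top of a ranking over many genes, and whether such an r exceeds what that choice alone gives was not tested. They leave out the Nos1-like cells (9 nuclei in DISC1-N replicate 1), where Sst and Npy were highest by CPM. Sst was followed most closely by Lmo3 (r = 0.919), Iqsec1 and Ncoa7, all highest in Satb1 somatostatin-like cells. Vip was followed by Acvr1 (0.943), Orc3 and Iscu, and Crh by Hdac11 (0.964), Vps13b and Nae1. For Npy these were Hps5 (0.887), Abcd3 and Stk4, and for Cck Zhx3 (0.892), Yjefn3 and Cxcl14, the last a chemokine gene, all 3 highest in Cnr1 Adarb2 cells. Tac1 had Ndufs4 (0.923), Matn2 and Tpm1, and Tac2 had Fnbp4 (0.948), Lima1 and Atraid. Penk had Ank3 (0.958), Thra and Zfp706, Pdyn had Crym (0.968), Icam5 and Erlin1, and Nts had Mapk1ip1l (0.928), Stk31 and Nnat.

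The comparison of DISC1-N with WT asked whether precursor RNA of GABAergic neurons differs with genotype. Over all GABAergic nuclei, Tac1, Penk and Pdyn had lower values in DISC1-N within both replicate numbers and, once scaled by TMM factors (edgeR's correction for library makeup), in each DISC1-N library than in each WT library, but none of the 10 genes passed the test. For Tac1 the WT replicates 1 and 2 held 48.3 and 31.6 CPM against 32.3 and 21.7 CPM in DISC1-N (log2 difference -0.56 ± 0.25 SE, edgeR adjusted p = 1, rank 90 of 15260 genes by p). For Pdyn these were 10.4 and 8.71 against 6.75 and 5.76 CPM (-0.61 ± 0.26), and for Penk 260 and 223 against 226 and 194 CPM (-0.19 ± 0.18). Within replicate numbers 1 and 2 the log2 differences were -0.56 and -0.54 for Tac1, -0.60 and -0.59 for Pdyn, and -0.18 and -0.20 for Penk. The lack of overlap held on plain CPM for Pdyn, but for Tac1 and Penk it rests on the scaling: DISC1-N replicate 1 was above WT replicate 2 before it, and below after it (31.5 against 32.7 for Tac1 and 221 against 231 for Penk).

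For Sst, Npy and Nts the replicate numbers disagreed. Sst had 670 and 726 CPM in the WT libraries, against 705 and 283 in DISC1-N, so the log2 difference was 0.10 within number 1 and -1.36 within number 2 (-0.51 ± 0.37 overall). For Npy the WT values were 179 and 217 CPM and the DISC1-N values 228 and 98.4, with differences of 0.38 and -1.14. Nts stood at 8.70 and 21.0 CPM in WT libraries, at 11.8 and 6.44 in DISC1-N ones, with differences of 0.46 and -1.69. For all 3 genes DISC1-N replicate 2 was the lowest library. Vip (182, 176, 79.1 and 81.5 CPM), Cck (250, 212, 70.4 and 63.2), Tac2 (62.7, 58.6, 31.6 and 26.9) and Crh (9.97, 8.85, 6.28 and 3.51), given as WT and DISC1-N replicate 1 and then replicate 2, lay further apart by replicate number than by genotype, both replicate 1 libraries being the higher. Their log2 differences by genotype were 0.00 ± 0.41, -0.20 ± 0.62, -0.14 ± 0.38 and -0.45 ± 0.44.

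In edgeR's quasi-likelihood fit 0 of the 10 genes was called at a Benjamini-Hochberg adjusted p under 0.05 (each adjusted p was 1), as were 0 of 15260 genes, a background of 0%. The same was true of DESeq2. An unadjusted p under 0.05 was reached by 0 of the 10 and by 0.524% of all genes. That share is below the one such a cut gives when no gene differs, so the fit was conservative. It had no term for the replicate number, and the difference between numbers 1 and 2 therefore entered its error. A lack of calls does not show equal levels. With the replicate number as a block, which left 1 residual degree of freedom, 0 of the 10 were called as well. Of the 10, 3 were lower without overlap, against 9.08% of all genes, and 0 were higher, against 9.98%. Within both replicate numbers 6 were lower (Cck, Crh, Tac1, Tac2, Penk and Pdyn), against 26.8% of all genes, and 0 higher, against 25.8%. The median log2 difference of the 10 was -0.37, against -0.00 over all genes.

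Measures of free RNA and of class makeup moved beside these values. In glia, where 8 of the 10 genes could be tested in edgeR, 0 were called (0% of 14573 genes; 0 of the 8 and 0.357% of all genes at an unadjusted p under 0.05). There 6 of 8 were lower in DISC1-N within both replicate numbers (27.4% of all genes) and 1, Nts, was higher (26% of all genes), and 0 of 8 did not overlap (7.93% lower and 8.92% higher over all genes). Tac1 had 27.7, 19.6, 16.4 and 10.7 CPM in glia of WT and DISC1-N replicate 1 and replicate 2. Of these glia, oligodendrocyte precursors held the most in each library, at 37.8, 28.5, 34.7 and 18.8 CPM, against 18.9, 14.0, 10.0 and 7.48 in astrocytes. The glial level of Tac1 is thus raised by this type, and whether its Tac1 was free RNA was not tested. The summed markers of excitatory neurons in GABAergic nuclei, 8 genes with none at 0, were 571 and 510 CPM in WT and DISC1-N replicate 1 and 414 and 381 CPM in replicate 2. Those of oligodendrocytes (8 genes, none at 0) were 136 and 108, then 83.2 and 68.5 CPM, and those of their precursors (6 genes, 1 at 0 in DISC1-N replicate 2) 486 and 445, then 612 and 579 CPM. These 3 lists were lower in DISC1-N within both numbers, whereas astrocyte markers (9 genes, none at 0; 355 and 365, then 347 and 315 CPM) and microglial markers (7 genes, none at 0; 60.3 and 48.5, then 58.7 and 59.4 CPM) went both ways. The part of free RNA and of other cells in the differences was not tested.

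After the glial UMIs per nucleus were subtracted in each library, the log2 differences were -0.50 for Tac1 (-0.56 and -0.40 within numbers), -0.56 for Pdyn (-0.61 and -0.49) and -0.13 for Penk (-0.16 and -0.09). Cck moved to -0.01 (-0.12 and 0.41), so that it was no longer lower within both numbers, Tac2 to -0.06 (-0.03 and -0.14) and Npy to -0.17. With subtype shares held at their mean, Tac1, Pdyn and Penk differed by -0.56, -0.63 and -0.08. Vip moved to -0.23 (-0.22 and -0.24), lower within both numbers, and Sst moved to -0.27, Cck to -0.32 and Tac2 to -0.32.

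The makeup of the GABAergic class was compared next. The genotypes did not overlap for 6 of 15 subtypes, each with an exact two-sided permutation p of 0.33, the smallest that 2 against 2 libraries allow. Pdzrn3 Adarb2 cells were 3.88% and 3.19% of GABAergic nuclei in WT and 2.23% and 2.12% in DISC1-N. Gpr149 intercalated-like neurons, the leading subtype for Tac1 and Pdyn, were 12.6% and 12.9% in WT and 16.1% and 13.6% in DISC1-N, the direction opposite to those transcripts. Nos1-like cells were 1.24% and 1.15% in WT and 0.954% and 1.11% in DISC1-N.

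Within subtypes, the 3 lowest unadjusted p-values belonged to Tac1 and Vip in Ltbp1 Lhx6 cells and Vip in Cnr1 Adarb2 cells, each with lower values in DISC1-N within both numbers, and none was called without a replicate block. The 10 subtypes with at least 20 nuclei in every library gave 100 combinations with the 10 genes, of which 57 had enough UMIs to test. In edgeR 0 of 57 were called, with a lowest adjusted p of 0.9986, and 9 had an unadjusted p under 0.05; DESeq2 called 0. With the replicate number as a block, which left 1 residual degree of freedom, edgeR called those 3 and Sst in Ltbp1 cells, against 0.34% of all genes in Ltbp1 and 0.306% in Cnr1 cells. The background without the block was 0% of the genes of each subtype. Tac1 in Ltbp1 cells was at 92.5 and 70.0 CPM in WT libraries against 34.0 and 39.2 in DISC1-N (-1.10 ± 0.28, edgeR adjusted p = 0.9997, within numbers -1.42 and -0.82), from 25 to 85 UMIs a library. In Gpr149 intercalated-like neurons Tac1 differed by -0.61 ± 0.22 (-0.70 and -0.52 within numbers), and in Zfhx3 neurons the value was 0.12 ± 0.44.

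In Cnr1 Adarb2 cells the Vip level was 634 and 249 CPM for WT, 192 and 140 for DISC1-N (-1.36 ± 0.36, edgeR adjusted p = 0.9998, within numbers -1.65 and -0.81). Without the richest nucleus of each library these were 253 and 181 against 76.9 and 81.9 CPM. In the Prox1 subtype, which held most Vip UMIs, the difference was -0.03 ± 0.33 (0.03 and -0.11 within numbers). Vip in Ltbp1 Lhx6 cells had a log2 difference of -2.11 ± 0.56 (edgeR adjusted p = 0.9997), from 4 to 34 UMIs a library, and was not above the floor. Sst in Satb1 somatostatin-like cells differed by 0.01 ± 0.49, from 0.63 within number 1 and -1.20 within number 2, and in Ltbp1 cells by -0.42 ± 0.36 (0.01 and -1.20). Npy took opposite signs within the 2 numbers in 7 of its 8 tested subtypes, and Cck was lower within both numbers in 8 of 10, of which 1, Cnr1 cells, was above the floor.

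**Figure D3:**
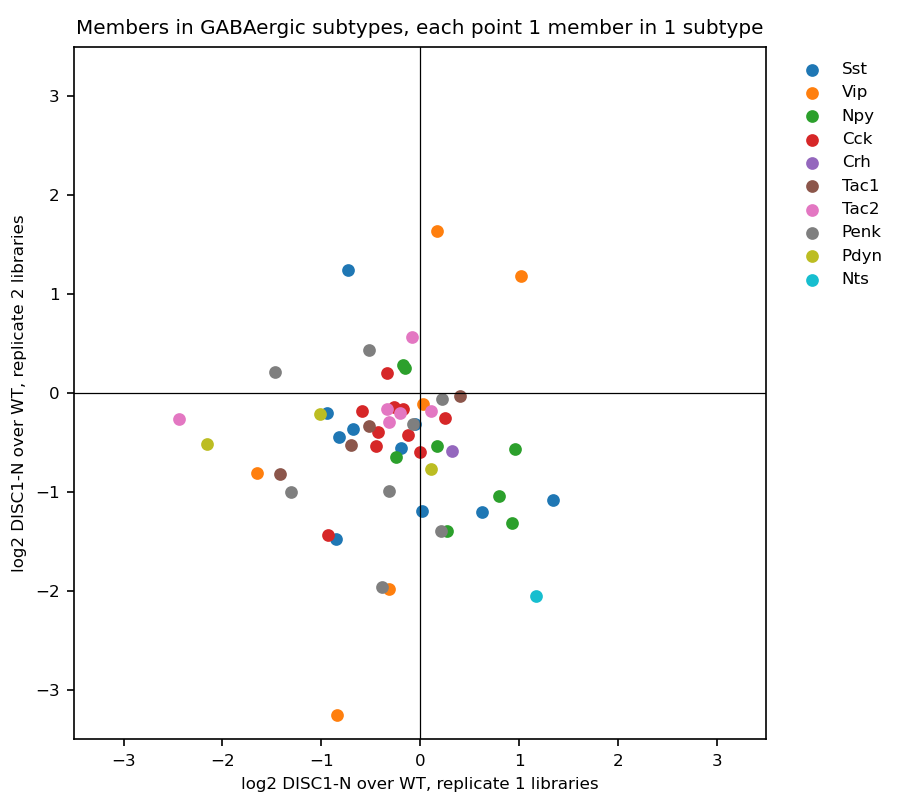
Log2 DISC1-N over WT within replicate number 1 (x) and within replicate number 2 (y) for the 57 tested combinations of gene and subtype. Points in the lower left were lower within both numbers, among them Tac1 in Ltbp1 Lhx6 cells at -1.42 and -0.82, and Sst in Satb1 somatostatin-like cells lies at 0.63 and -1.20.

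In excitatory neurons all 8 tested genes (Crh and Pdyn had too few UMIs) were lower in DISC1-N within both replicate numbers, against 27.7% of all genes, and 0 were higher, against 25.5%. The summed markers of GABAergic neurons in excitatory nuclei (7 genes, none at 0) went the same way, at 351 and 282 CPM in WT and DISC1-N replicate 1 and 288 and 246 CPM in replicate 2, and their part in these differences was not tested. Penk values were 13.2 and 12.6 CPM for WT, 9.45 and 5.88 for DISC1-N (-0.77 ± 0.25, edgeR adjusted p = 0.9999), Tac1 at 7.54 and 5.26 against 4.58 and 1.43 CPM (-1.16 ± 0.49). These 2 were lower without overlap (8.88% of all genes), and 0 were higher without overlap (10.1%). Both lay close to the glial level per nucleus, at 1.70 ± 0.45 and 1.18 ± 0.38 times. Nts and Cck, the genes above it, differed by -0.81 ± 0.39 and -0.28 ± 0.40. edgeR called 0 of the 8 and 0% of 16313 genes, DESeq2 0 of the 8, and an unadjusted p under 0.05 was reached by 1 of the 8 and by 0.723% of all genes.

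Other genes of neuropeptide signalling were measured from lists of further precursors, receptors, processing and release proteins, and GABA identity genes. In the GABAergic class 0 of 15 tested further precursors (20 listed), 0 of 19 tested receptors (23 listed), 0 of 12 processing and release genes and 0 of 4 GABA identity genes were called. Their median log2 differences were -0.15, -0.07, -0.08 and 0.04. The lowest p-values among precursors belonged to Hcrt (orexin; 1.47 ± 0.51, from 0.633 to 2.11 CPM) and Cartpt (-1.08 ± 0.39, with 6.17 and 9.11 CPM in WT libraries against 2.53 and 4.39). Among receptors they belonged to the somatostatin receptor Sstr2 (-0.44 ± 0.26) and the neuropeptide Y receptor Npy1r (-0.38 ± 0.23). Among vesicle and processing genes they were the granins Chga (-0.27 ± 0.24) and Scg2 (-0.32 ± 0.29). The vesicular GABA transporter Slc32a1 stood at -0.35 ± 0.20 and the GABA-synthesizing enzyme Gad2 at 0.09 ± 0.25.

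Some receptors were highest where their peptide was, and several were highest in other places. The substance P receptor Tacr1 was highest in Gpr149 intercalated-like neurons (92.6 ± 5.8 CPM, SD, n = 4), the subtype that also led for Tac1. The µ-opioid receptor Oprm1 was highest in Kcnh8 (318 ± 64) and Abi3bp (288 ± 58) intercalated-like neurons, which did not differ beyond their spread although Penk did. Npy1r was highest in Pdzrn3 (78.6 ± 17.5) and Prox1 (73.1 ± 16.0) Adarb2 cells, outside the Npy-rich subtypes. The stress hormone receptor Crhr1 led in Kcnh8 intercalated-like neurons (39.2 ± 10.2). The neurotensin receptor Ntsr2 had 411 ± 48 CPM in astrocytes against 3.81 in GABAergic neurons, and the VIP receptor Vipr2 was highest in oligodendrocyte precursors (20.0 ± 6.9).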

How the data were processed

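The deposited values are counts of UMIs for every gene in every barcode, which the authors obtained from 10x 3' v3 libraries using Cell Ranger and the mm10 genome, and they are raw. The version was 7.0.0 for replicate 1 and 6.0.2 for replicate 2 per the file headers, and 7.0.0 for all per the submitters' processing notes. Whether intronic reads were counted is not given in the sources used here.

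Filters of 500 genes or more and 5% mitochondrial UMIs or less left 26850 nuclei, and the highest Scrublet scores (0.8% per 1000 nuclei) were removed as doublets. Clusters (scanpy 1.11.5, leidenalg 0.10.2, 2000 variable genes, 30 components, resolution 0.5) were classed by markers, and 2967 nuclei (median 11249 UMIs) stayed without a class, some by a doublet score limit of 0.08 that was set after the data were seen. GABAergic nuclei were clustered again (1500 genes, 20 components) without precursor genes, with resolution 1.0 as the alternative. Clusters in which leading genes went against a name, or with few markers, carry no cell type name, and other rebuilt names could differ from the study's own.

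Counts were summed per cell group and library and tested in edgeR 4.0.16 (quasi-likelihood, TMM, filterByExpr; R 4.3.3) across all genes, without a replicate block, with adjusted p under 0.05 called. Alternatives were the replicate block, DESeq2 size factors, DESeq2 1.42.0, no count filter, other doublet and depth limits, fixed subtype shares and each library left out; subtracting the glial level, leaving out the richest nucleus and testing differences between subtypes were added after the data were seen. The 2 replicates of a genotype differed by 17.4 times sampling noise (chi-square over degrees of freedom) in both genotypes. The fit was run on simulated data for GABAergic neurons at a dispersion (spread between replicates beyond sampling) of 0.02. It recovered 77 of 100 genes changed 2-fold and 100 of 100 changed 4-fold, with 5 false calls. In the libraries themselves the log2 differences of Sst, Vip and Cck had an SE of 0.37, 0.41 and 0.62. Whether the simulated dispersion matches these libraries was not tested, so the shares recovered cannot be carried over to them. Genes were matched to GENCODE vM21 by ID (32158 of 32285).

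The 10 genes and the lists were chosen with earlier results of these data known. Named genes are the 10, the 3 genes most like each (mean of at least 20 CPM, without gene models, mitochondrial, ribosomal protein and sex-linked genes), the 2 of lowest p of each list, and receptors where they are highest; genes that only name a cluster are outside this rule.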

Additional observations from a re-analysis of the deposited data

Results flagged for a closer look

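Vip was the only one of the 10 genes that was lower in DISC1-N within both replicate numbers in some GABAergic subtypes and higher within both in others. The subtypes were chosen after their values were seen, and each difference of log2 differences was fitted in edgeR with a term for each library and adjusted over all genes tested. That adjustment covers neither the choice of subtypes nor the number of contrasts. The p-values below come from the values used for the choice and are no independent support for a difference. Vip was higher in DISC1-N in Pdzrn3 Adarb2 cells (69.0 and 30.5 CPM in WT, 138 and 69.0 in DISC1-N) and lower in Cnr1 Adarb2 cells, a difference of 2.31 (edgeR adjusted p = 0.0185 over 6340 genes, of which 7 were called). The Pdzrn3 value rests on 8 to 12 UMIs a library and the Cnr1 value on 55 to 188. Without the richest nucleus of each library the Pdzrn3 values in DISC1-N, 50.1 and 51.7 CPM, stayed above the WT ones, 40.2 and 19.0. Pdzrn3 cells minus Ltbp1 Lhx6 cells gave 3.16 (edgeR adjusted p = 0.351) and Pdzrn3 cells minus Abi3bp intercalated-like neurons 2.03 (edgeR adjusted p = 1). Vip was also higher in DISC1-N in Kcnh8 intercalated-like neurons (47.2 and 4.27 CPM in WT, 51.8 and 13.2 in DISC1-N), but single nuclei held 20 of the 32 and 20 of the 30 UMIs of the replicate 1 libraries. Without the richest nucleus of each library the replicate 1 values were 17.7 (WT) and 17.3 CPM (DISC1-N) and the replicate 2 values 3.41 and 6.59, so Vip was no longer higher in DISC1-N within replicate 1. With all nuclei the difference was 1.68 from Cnr1 cells (edgeR adjusted p = 0.245), 2.58 from Ltbp1 cells (edgeR adjusted p = 1) and 1.44 from Abi3bp neurons (edgeR adjusted p = 0.999). Outside the Pdzrn3 and Cnr1 subtypes these levels did not reach 3 times the glial level in every library, and the part of free RNA in them was not tested.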

How the results depend on the processing

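The result that 0 of the 10 genes was called in GABAergic neurons held under every alternative run, while genes called of all tested were 0 in the report and 1 to 9 with a library left out. Of 80 log2 differences under other settings 77 kept their sign; Vip turned to 0.013 with the replicate block, 0.015 with more doublets removed and 0.063 above the glial level, while with subtype shares fixed it was -0.23, against 0.00. With a library left out, Sst, Tac1 (-0.81 to -0.29), Penk (-0.25 to -0.12) and Pdyn (-0.68 to -0.53) kept their sign, Sst from -1.24 to -0.02, and the others changed it: Vip from -0.59 to 0.64, Npy from -0.96 to 0.17, Cck from -1.25 to 0.89, Crh from -1.12 to 0.12, Tac2 from -0.72 to 0.36 and Nts from -1.30 to 0.083. In excitatory neurons these ranges were -1.55 to 0.34 for Sst, -1.66 to 0.70 for Vip, -0.91 to 0.16 for Npy, -0.92 to 0.21 for Cck and -1.02 to 0.23 for Tac2. Genes called there were 13 with the block, 18 without the count filter and 1 to 20 with a library left out, of which 0 to 2 were among the 10: without DISC1-N replicate 1 Sst and Tac1, without WT replicate 2 Nts.

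The replicate block (1 residual degree of freedom) called 4 of the 57 subtype combinations, against 0 without it: Tac1 (-1.07), Vip (-2.16) and Sst (-0.57) in Ltbp1 Lhx6 cells and Vip (-1.24) in Cnr1 Adarb2 cells. Leaving out a library called 0 to 4, the 4 without WT replicate 2. The labels number the replicates but do not say that libraries of equal number were paired across genotypes. The 2 pairs rest on those numbers, on resemblance and on the Cell Ranger version in the file headers. Leaving out a library also unbalances the replicate numbers. The 12 pairs of genes above 1 became 2 at 3 UMIs and 2 after thinning, where fewer pairs could be counted, and 13 to 16 with a library left out, since fewer libraries then have to be above 1. Subtypes without overlap were 6, and 7 to 13 with a library left out. Sparse UMIs limit Crh, Pdyn and Nts most.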
